A study of Mus musculus with 18 samples.

Results

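Open chromatin was compared between naive CD4 T cells with high Nr4a1 reporter signal from the spleen and the same kind of cells from the axillary lymph nodes, by ATAC-seq. The comparison used 6 of the 18 libraries of the series: 3 from spleen high cells and 3 from axillary high cells, chosen by their labels. Every group came from C57BL6/J mice whose genotype is given as WT, untreated, with cells prepared fresh and sorted for high or low signal of an Nr4a1-dsGFP reporter, which the series uses as a measure of tonic T cell receptor stimulation. The 3 spleen low, 3 axillary low and 3 mesenteric high libraries were read at the same places. The labels call the libraries of a group biological replicates and do not say whether each came from its own mouse, from pooled mice or from 1 sort, and they do not describe the reporter allele. The peak lists of the 6 libraries fell into 24877 merged regions with a peak in at least 1 of them, of 33115 regions in the whole series, and 10270 regions had a peak in all 6.

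ATAC-seq uses the Tn5 transposase, which cuts and tags DNA where nucleosomes leave it exposed, so that promoters and active enhancers give peaks of reads. Naive T cells receive weak, continuous signals from self peptides through their antigen receptor; the immediate early gene Nr4a1, which encodes an orphan nuclear receptor, is switched on by these signals. Naive cells recirculate between spleen and lymph nodes: they enter nodes with the help of the chemokine receptor Ccr7, and leave through the sphingosine phosphate receptor S1pr1, which Cd69 holds back from the cell surface. The spleen is entered directly from the blood.

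Promoters with a peak in all 3 spleen high libraries and in no axillary high library, both in the deposited lists and in lists of equal length, included those of Cd3g (a CD3 chain of the T cell receptor), Ctnnb1 (beta-catenin), Socs3 (an inhibitor of cytokine signalling) and Atf3 (a stress and activation factor of the ATF family). Their sequences are shown because, with E2f3, these are the regions named below that meet this criterion and overlap a promoter window, taken from 250 bases before to 50 bases after the annotated start. They come from RefSeq, build GRCm38.p6, which is mm10, each on the strand of its gene: Cd3g at chr9:44980382-44980681 on the minus strand, Ctnnb1 at chr9:120933328-120933627 on the plus strand, Socs3 at chr11:117969317-117969616 on the minus strand and Atf3 at chr1:191183284-191183583 on the minus strand. Capitals mark matches, on either strand, to the GC box GGGCGG or to the STAT pattern TTCNNNGAA.
Cd3g: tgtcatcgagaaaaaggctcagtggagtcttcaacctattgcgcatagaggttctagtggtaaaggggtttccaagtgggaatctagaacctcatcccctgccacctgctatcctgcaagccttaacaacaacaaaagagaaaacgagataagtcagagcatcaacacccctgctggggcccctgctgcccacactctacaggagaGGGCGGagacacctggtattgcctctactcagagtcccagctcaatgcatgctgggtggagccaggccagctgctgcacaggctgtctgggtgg
Ctnnb1: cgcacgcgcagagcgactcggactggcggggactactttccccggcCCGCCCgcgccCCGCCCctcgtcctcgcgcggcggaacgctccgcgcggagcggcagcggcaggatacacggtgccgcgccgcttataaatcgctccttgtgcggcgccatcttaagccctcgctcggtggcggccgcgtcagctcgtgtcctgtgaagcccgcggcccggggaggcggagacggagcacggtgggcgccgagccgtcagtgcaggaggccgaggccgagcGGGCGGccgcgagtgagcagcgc
Socs3: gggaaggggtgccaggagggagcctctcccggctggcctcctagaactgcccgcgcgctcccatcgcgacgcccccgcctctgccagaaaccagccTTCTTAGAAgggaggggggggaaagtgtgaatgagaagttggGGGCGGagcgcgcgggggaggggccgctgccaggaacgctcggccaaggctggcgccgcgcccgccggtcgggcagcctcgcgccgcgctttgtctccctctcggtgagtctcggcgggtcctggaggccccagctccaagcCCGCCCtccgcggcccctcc
Atf3: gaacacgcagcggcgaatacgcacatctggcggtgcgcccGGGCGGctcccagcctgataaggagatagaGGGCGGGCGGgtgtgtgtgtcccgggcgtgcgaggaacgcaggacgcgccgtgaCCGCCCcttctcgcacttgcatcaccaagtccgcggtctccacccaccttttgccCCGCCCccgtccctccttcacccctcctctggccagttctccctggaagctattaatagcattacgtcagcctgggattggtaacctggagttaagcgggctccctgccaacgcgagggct
The Cd3g window held 1 GC box, Ctnnb1 held 3, Socs3 held 2, and Atf3 held 5, of which 1 pair overlaps. Socs3 also held a STAT match, TTCTTAGAA, starting 154 bases before the start site. No match to ETS (CCGGAA), RUNX (TGTGGT) or CRE (TGACGTCA) letters was found in these 4 windows. Among all 21045 RefSeq promoter windows of this length, 46.7% hold a GC box, 7.76% the STAT pattern, 18.9% the ETS, 14.8% the RUNX and 2.26% the CRE letters. A match describes the letters only.

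The peak lists differed in length, depth and fragment estimate. The spleen high libraries held 17298, 17645 and 17960 peaks, against 15695, 15898 and 14778 in axillary high libraries, a difference of 2177. The means were 17634 ± 331 in spleen high and 15457 ± 597 in axillary high libraries (SD, n = 3 each; two-sided exact permutation p = 0.1, the lowest possible with 3 against 3). The narrowest peak of a list, which follows the fragment length the peak caller estimated, was 167, 170 and 161 bp in spleen high libraries, against 226, 176 and 236 bp in axillary high libraries. Depth recovered from the lists was 13.2, 14.0 and 14.0 reads per 10 kb of background, against 9.60, 10.2 and 9.85. Neither measure overlapped between the groups, so organ, depth and fragment estimate cannot be told apart from these 6 libraries alone. Axillary high replicate 2, with a narrowest peak close to those of the spleen, was therefore also taken alone. So was spleen low replicate 3, whose narrowest peak (233 bp) and depth (9.84) stood near those of axillary low libraries (216 to 232 bp, 8.48 to 9.53). Replicates of a group were closer to each other than libraries of different groups (chi-square per region 0.541 to 0.644 at strong summits, against 0.796 to 0.925). Pairs between groups also lay under 1, the value of sampling noise. The measure therefore cannot show whether replicates differ by less than sampling noise. Each library was kept as 1 sample. Since the labels do not say how the replicates were made, the p-values may measure technical spread. Of 14 marker genes of naive CD4 T cells, 9 had a peak in all 6 libraries and none lacked one throughout. Regions at 8 B cell genes carried 0 to 2 peaks per spleen high library and 0 in axillary high libraries, with Ms4a1, Cd79a, Cd79b, Blk and Cd22 at 0 throughout. Regions at 8 myeloid genes carried 0 to 3 and 0, with Lyz2, Csf1r, Cd14, Itgam, Mpo and S100a8 at 0 throughout. Other lists had peaks in every library. Per spleen high and axillary high library, 5 NK cell genes carried 2 to 4 and 1 to 4, and 6 dendritic cell genes 2 to 4 and 2 to 5. For 6 erythroid genes these were 2 and 1 to 3, for 10 stromal and endothelial genes 2 to 6 and 2 to 5, and for 2 CD8 T cell genes 1 and 1 to 2.

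**Figure D1:**
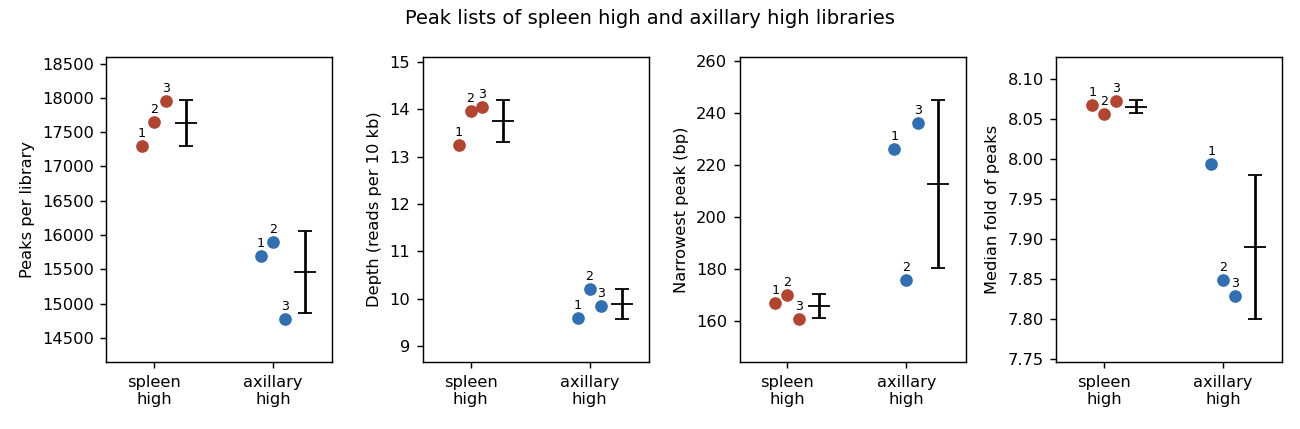
Peaks, recovered depth in reads per 10 kb, narrowest peak in bp and median fold of all peaks in the 3 spleen high (left in each panel) and 3 axillary high libraries. Points are libraries with their replicate number, and bars give the mean and SD. Spleen high libraries have 17298 to 17960 peaks and axillary high libraries 14778 to 15898, and only axillary high replicate 2 has a narrowest peak (176 bp) near those of the spleen (161 to 170 bp). The vertical axes do not start at 0.

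The first result concerned regions near gene ends as a class, which hold starts and 3′ ends alike. Among regions with a peak in every library, spleen high cells had more signal at gene ends, relative to regions farther away, than axillary high cells. Each region was given the authors' fold (reads at the summit over the local background, with a constant added to both) of its strongest peak. With that constant the fold also grows with depth. In the 8756 regions with a peak in all 18 libraries, the median fold of the 5614 regions within 1000 bp of an end of a protein-coding gene was 11.1, 10.95 and 11.1 in spleen high libraries, against 10.1, 9.94 and 9.54 in axillary high libraries. In the other 3142 regions, farther from gene ends, it was 9.22, 9.33 and 9.54 in spleen high libraries, against 9.24, 9.09 and 8.72 in axillary high libraries. The spleen high libraries thus stood apart at gene ends, while farther away the groups overlapped. This concerns the strength of shared regions only. In the whole deposited lists the share of peak summits near gene ends was lower in spleen high libraries, 46.13% against 47.91% on average. With equal lists it was higher, 50.48% against 48.75%.

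The ratio of the gene-end median to the other median was 1.20, 1.17 and 1.17 in the spleen high libraries, against 1.09, 1.09 and 1.10 in the axillary high libraries. On the log2 scale it was 0.24 ± 0.02 in spleen high and 0.13 ± 0.001 in axillary high libraries (SD, n = 3 each). These means differed by 0.11 (exact permutation p = 0.1). In the same regions, whose choice required a peak in every library of the series, the low reporter libraries gave 0.19 ± 0.01 in spleen low and 0.13 ± 0.004 in axillary low cells (SD, n = 3 each; exact permutation p = 0.1). Relabelling organs within each reporter level, 400 ways in all, gave a mean difference of 0.08 and an exact permutation p of 0.005, the smallest these 12 libraries can give. All 6 spleen libraries lay above all 6 axillary ones. The measure was chosen after the class medians had been seen.

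The gap was also measured in libraries of nearer fragment estimate and at equal depth; the part of either in it was not tested beyond these values. Against axillary high replicate 2 alone, whose depth is near that of the other axillary libraries, the difference was 0.11, and after thinning reads to equal depth it was 0.11 (0.28 ± 0.02 in spleen high and 0.17 ± 0.004 in axillary high libraries, SD, n = 3 each, in the 9553 regions then shared by the 6). Spleen low replicate 3, with the long estimate and low depth of axillary libraries, stood 0.06 above axillary low libraries, and spleen low replicates 1 and 2 stood 0.02 below replicate 3. Summit reads were also set over the genome average in place of the local background, with the same constant added to both. This gave 0.40 ± 0.04 in spleen high and 0.23 ± 0.03 in axillary high libraries (SD, n = 3 each). Within levels the same exact permutation test gave p = 0.005. Mesenteric high libraries gave 0.16 by fold, and mesenteric low libraries 0.24, 0.24 and 0.26, so a value as high as that of spleen high cells was not particular to the spleen.

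**Figure D2:**
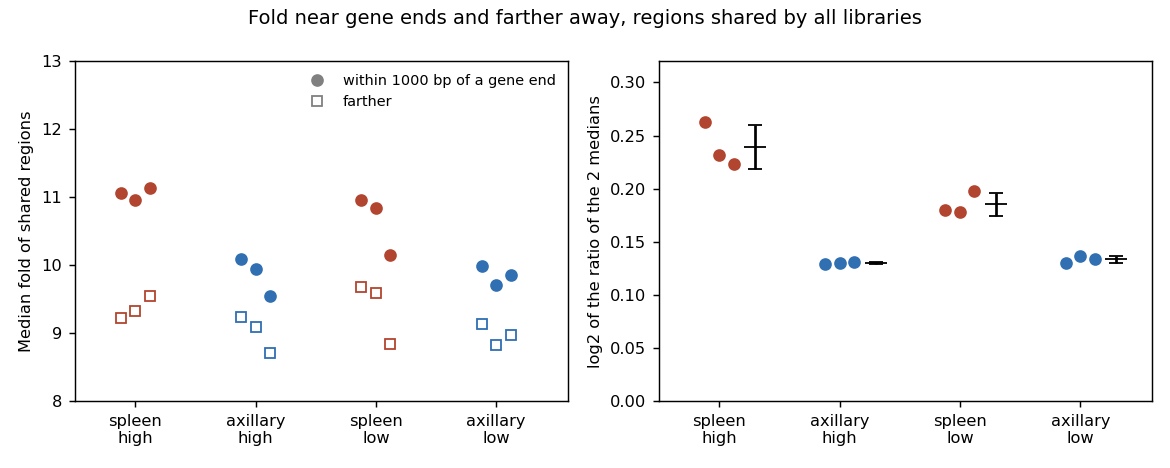
Left, the median fold of shared regions in each library, for regions within 1000 bp of a gene end (filled circles) and farther away (open squares). Right, the log2 of the ratio of these medians in each library, with mean and SD; the left axis starts at 8. In the right panel the spleen high libraries lie at 0.22 to 0.26 and the axillary high libraries at 0.13, and the spleen low libraries lie above the axillary low ones.

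Across the 10270 regions shared by the 6 libraries, the fold was higher in spleen high cells by a median of 0.12 on the log2 scale, a ratio of 1.09. The median difference was 0.15 at the 6162 regions near gene ends, 0.07 at 2447 regions farther away inside genes and 0.05 at 1661 regions outside genes. Every spleen high library was above every axillary high library in 23.8% of regions near gene ends, and every one was below in 1.62%; over all shared regions these shares were 19.4% and 2.8%, and with equal list lengths 20.8% and 2.4%. By -log10 p they were 19.3% and 3.29%, and 20.7% and 2.92% with equal list lengths. Cutting lists to equal length changes no value at a shared region, only which regions are compared. No single region passed limma on log2 fold with Benjamini-Hochberg adjustment over the 10270 (0 higher and 0 lower, 0% called in either direction, smallest adjusted p = 0.0808), and 0 passed with equal list lengths, while 1540 were higher and 165 lower at an unadjusted p under 0.05. These unadjusted counts were 196 and 949 at equal depth and 561 and 606 after centring. With all 18 libraries sharing 1 estimate of the spread, 145 were higher and 8 lower. At equal depth the median turned to -0.08. With summit reads over the genome average, and no constant added to either, it was 0.0006. The direction of the median over all shared regions thus depended on the scaling. The contrast between gene ends and other regions kept its sign at equal depth. It also kept its sign with summit reads over the genome average, there with a constant added to both. Centring each library on its median cannot change that contrast.

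By the authors' -log10 p, which grows with depth, 90 regions were higher in spleen high cells (0.876%) and 7 lower (0.0682%) by limma at an adjusted p of 0.05. With equal list lengths 168 (1.81%) and 7 (0.0755%) were called, and 77 and 3 were called in both. Cutting the lists leaves the -log10 p of a shared region as it was and only takes regions out. The overlap is thus no separate support. The cut lists end at a -log10 p of 8.46 to 8.96 in spleen high and 5.10 to 7.56 in axillary high libraries. Of the 90 higher regions, 71 (78.9%) lay near gene ends, against 60.0% of all shared regions; of the 7 lower ones, 0 did. These calls need all libraries: leaving out spleen high replicate 1, 2 or 3 left 0, 0 and 1 higher regions, leaving out axillary high replicate 2 or 3 left 0 each, and leaving out axillary high replicate 1 left 75. Centring each library on its median left 0 higher and 1 lower, and at equal depth 0 were higher and 40 lower, so the direction of the calls turned there.

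The regions named next led the calls in both sets of lists or were picked from them after their values were seen, and no call toward the spleen was left at equal depth. A region 125 bp from an end of Sf3b4, a subunit of the splicing factor SF3B (chr3:96172017-96172745), had a fold of 11.1, 14.4 and 10.95 in spleen high libraries, against 8.55, 6.10 and 4.83 in axillary high libraries. Its -log10 p averaged 22.7 ± 5.33 in spleen high and 9.55 ± 3.78 in axillary high libraries (SD, n = 3 each; log2 difference 1.30, SE 0.26, limma adjusted p = 0.0361). At Timm22, a subunit of the mitochondrial inner membrane translocase (chr11:76406665-76407227), the fold was 11.8, 15.1 and 14.5 in spleen high libraries, against 10.1, 6.96 and 7.44 in axillary high libraries. The groups did not overlap at either place. At the start of Rps12, a ribosomal protein gene, the -log10 p was 33.2, 40.7 and 23.1 in spleen high libraries, against 17.4, 12.2 and 17.95 in axillary high libraries. At Fkbp5, a chaperone gene induced by glucocorticoids, a gene-end region (chr17:28485811-28486488) had a fold of 12.5, 13.8 and 11.1 in spleen high libraries, against 7.44, 7.43 and 7.66 in axillary high libraries. Both were among the 90, as was a region 59712 bp from an end of Ets1, inside the gene of this lymphocyte transcription factor, with 10.3, 9.97 and 12.1 in spleen high libraries, against 5.35, 8.86 and 5.79 in axillary high libraries.

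The 7 lower regions lay away from gene ends, at Srpk1, Arhgef10, Tcf7l2, Dusp4, Adipoq, Actn1 and Slc28a2. A region inside Srpk1, which encodes a kinase of splicing factors (chr17:28612573-28613135), had a fold of 4.85, 6.62 and 6.49 in spleen high libraries, against 10.6, 10.95 and 9.96 in axillary high libraries. It was the region still called after centring (log2 difference in -log10 p -1.39, limma adjusted p = 0.0352). A region inside Tcf7l2, a TCF factor that works with beta-catenin (chr19:55915335-55915916), had 6.28, 7.37 and 6.46 in spleen high libraries, against 9.67, 12.5 and 11.5 in axillary high libraries. A region 67222 bp from Dusp4, a phosphatase of MAP kinases, had 5.94, 5.72 and 7.02 in spleen high libraries, against 10.6, 10.4 and 8.54 in axillary high libraries. In each of these 3 regions all axillary high libraries were above all spleen high ones.

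The second result concerned single places where a peak was called in 1 organ only. In the deposited lists 409 regions had a peak in all 3 spleen high libraries and no axillary high one (1.64% of 24877), and 76 the reverse (0.306%). With each list cut to its 14778 strongest peaks the counts were 203 (0.918% of 22113) and 160 (0.724%), and at equal depth 261 (1.09% of 23860) and 120 (0.503%). The excess toward the spleen was thus smaller with equal lists. With equal lists, 5290 regions had a peak in more spleen high libraries and 5450 in more axillary high libraries. Against axillary high replicate 2 alone, 819 regions had a peak in all 3 spleen high libraries and not in that library, and 1387 the reverse. One count asks for a peak in 3 libraries and the other for a peak in 1, so the 2 cannot be compared for direction. In both the deposited and the equal lists, 165 regions (0.663%) separated the groups toward the spleen and 53 (0.213%) toward the axillary nodes. No test of a single region is possible on presence, since 3 against 3 cannot give a p below 0.1, and a missing peak means a signal under the authors' threshold, since the lists start just above a -log10 p of 5, and does not show that the place was closed. The 165 were weak to middling peaks with a median fold of 7.22 (4.22 to 12.3), and the 53 had a median of 6.50 (3.998 to 10.4). Of the 165, 27.3% lay near gene ends, and of the 53, 13.2%, against 36.4% of all 24877. The 24877 include the regions with a peak in every library, which cannot separate the groups. Among the 2090 regions with a peak in 3 of the 6 libraries, whichever these were, the share was 21.05%.

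**Figure D3:**
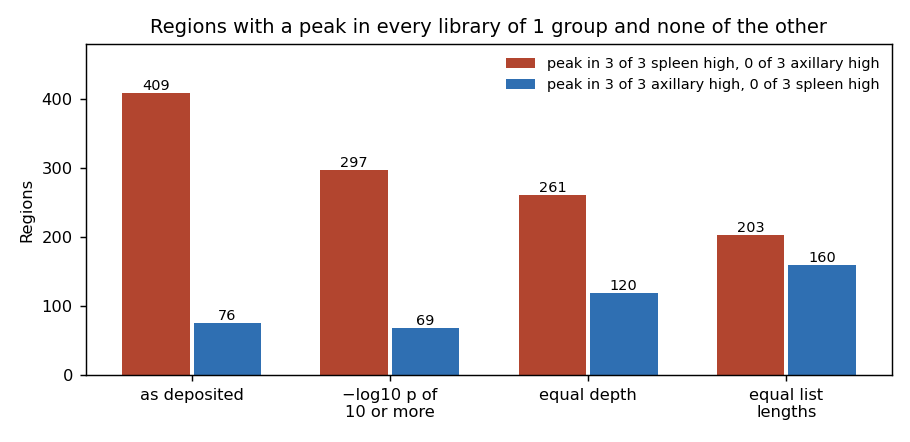
Number of regions called in every library of 1 group and in none of the other, spleen high left of axillary high in each pair, in the deposited lists, with a minimum -log10 p of 10, at equal depth and with equal list lengths. The counts are 409 and 76 as deposited and 203 and 160 with equal list lengths.

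Libraries with low reporter signal, which took part in the merging but not in the choice of the 409 and the 76, were read at these places. Of the 409 regions, spleen low libraries had a peak in 55.8%, 56.2% and 36.4%, against 24.0%, 20.3% and 23.2% in axillary low libraries. The lowest spleen low value belongs to replicate 3, and it still lay above every axillary low library. Of all 24877 regions, spleen low libraries had 63.0% on average and axillary low libraries 56.6%. Of the 76 regions toward the axillary nodes, spleen low libraries had a peak in 47.4%, 40.8% and 26.3%, against 48.7%, 48.7% and 43.4% in axillary low libraries, where spleen low replicate 1 lay between the axillary ones. At 241 of the 409 regions (58.9%) more spleen low than axillary low libraries had a peak, and at 43 (10.5%) fewer. Over all 24877 regions these shares were 23.6% and 10.3%, but 16458 of these were tied, against 125 of the 409. At 17 of the 76 regions (22.4%) more spleen low libraries had a peak, and at 28 (36.8%) more axillary low libraries did. A difference between organs that itself differed between reporter levels was sought by limma's interaction term on log2 fold. It was found at 0 of 8910 regions with a peak in every spleen and axillary library (462 at an unadjusted p under 0.05). None of the 409 or the 76 can be among these regions, since each lacks a peak in every library of 1 high group. Mesenteric high libraries, which are the deepest, had a peak in 69.9% of the 409 and 82.5% of the 76 on average.

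**Figure D4:**
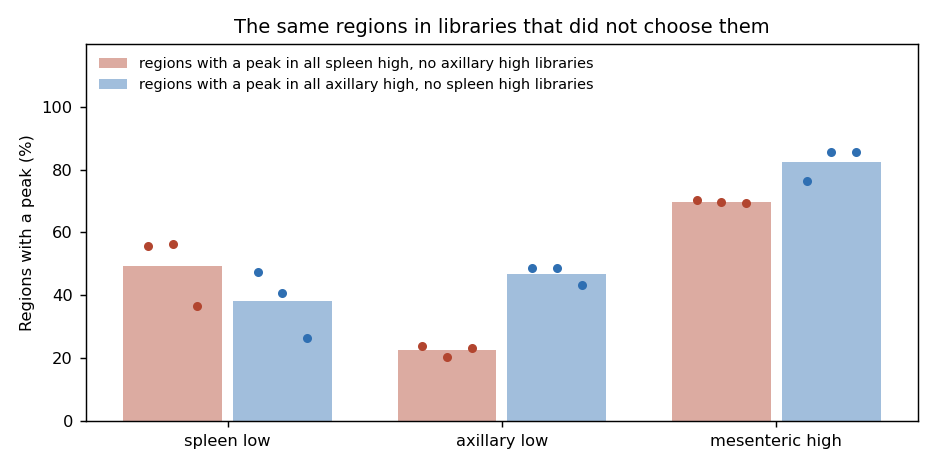
Share of the 409 spleen high regions and the 76 axillary high regions that had a peak in each spleen low, axillary low and mesenteric high library. Bars are means and points are the 3 libraries. The 409 regions have a peak in 36.4% to 56.2% of cases in spleen low libraries and 20.3% to 24.0% in axillary low libraries.

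Cd69, the early activation gene that keeps T cells in tissue, had neighbouring regions that differed in direction. A region 34295 bp from the gene (chr6:129232899-129233159) had a fold of 5.58, 5.85 and 5.59 in the spleen high libraries and no peak in any axillary high library. It had a peak in all 3 spleen low libraries, the long-fragment replicate 3 included, in 0 of 3 axillary low libraries and in 0 of 3 mesenteric high libraries. The next region, 38052 bp from the gene (chr6:129229008-129229537), had a peak in 1 of 3 spleen high libraries, with a fold of 4.85, and in all 3 axillary high libraries, with 5.52, 8.96 and 6.83; it had a peak in 2 of 3 spleen low, 3 of 3 axillary low and 3 of 3 mesenteric high libraries. These neighbours thus favoured opposite organs in the high reporter cells. At the start of Cd69 (chr6:129275167-129275776) the fold was 8.33, 7.54 and 9.68 in spleen high libraries, against 4.78, 5.89 and 6.15 in axillary high libraries. The groups did not overlap there, but the difference did not pass (log2 0.61, SE 0.16, limma adjusted p = 0.106), and in low reporter cells the means were 6.40 ± 1.25 in spleen and 5.96 ± 1.29 in axillary nodes (SD, n = 3 each). A region 9282 bp from the gene, on the other side of the gene from these distal ones, had the highest fold of the locus, 15.0 ± 1.68 in spleen high and 14.1 ± 1.45 in axillary high libraries (SD, n = 3 each).

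Of the 10 strongest spleen regions of the 165, ranked by -log10 p within each library, several lay far from genes and are named by the nearest gene only. A region 120742 bp from Cxcr4, the chemokine receptor for CXCL12 (chr1:128712832-128713251), had a fold of 7.72, 10.1 and 10.7 in spleen high libraries and no peak in axillary high ones; it had a peak in 2 of 3 spleen low, 0 of 3 axillary low and 0 of 3 mesenteric high libraries. A region 20502 bp from Cenpe, a kinesin of the mitotic kinetochore (chr3:135191844-135192279), had 11.2, 10.9 and 10.2 in spleen high libraries, and a region 373883 bp from Kctd8 (chr5:68735241-68735563) had 9.43, 10.8 and 8.76. Both also had a peak in all 3 spleen low libraries and in no axillary low or mesenteric high library. Together with the Cd69 region, the Cenpe and Kctd8 regions show the same organ pattern at both reporter levels. Most of the separating regions did not. A peak in 3 of 3 spleen low and 0 of 3 axillary low libraries was found at 34 of the 409 (8.31%) and 21 of the 165 (12.7%). Over all 24877 regions the share was 1.105%. The reverse was found at 2 of the 76 (2.63%), beside 0.181% over all regions. A region inside Atf6, a sensor of unfolded proteins (chr1:170709524-170709908), had 10.0, 10.8 and 10.9 in spleen high libraries, but a peak in 1 of 3 spleen low libraries. The other 6 of the 10 lay at Ctnnb1, Mitf, Cibar2, Socs3, Ube2v1 and Med13l, and each of these had a peak in all 3 mesenteric high libraries as well. The Mitf and Cibar2 regions each had a peak in 2 of 3 spleen low and 2 of 3 axillary low libraries. For Ube2v1 these were 2 of 3 and 1 of 3, and for Med13l 3 of 3 and 0 of 3.

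At the promoters printed above, Ctnnb1 (region chr9:120933208-120933774) had a fold of 10.7, 8.99 and 8.94 in spleen high libraries, with a peak in all 3 spleen low and no axillary low library. Socs3 (chr11:117968986-117969595) had 10.6, 7.12 and 7.93 in spleen high libraries, with a peak in 3 of 3 spleen low and 1 of 3 axillary low libraries. Cd3g (chr9:44980287-44980605) had 6.94, 9.39 and 9.62 in spleen high libraries, with a peak in 2 of 3 spleen low libraries, not in replicate 3, in 0 of 3 axillary low and in 3 of 3 mesenteric high libraries. Atf3 (chr1:191183121-191183671) had 6.26, 6.45 and 6.07 in spleen high libraries, with a peak in 3 of 3 spleen low, 0 of 3 axillary low and 1 of 3 mesenteric high libraries. No axillary high library had a peak at any of the 4.

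The 10 strongest axillary regions of the 53 lay at Akap12, Arhgap15, Tstd2, Cldn10, Prss32, Mtss1, Rad23b, Ankrd12, Tex35 and Ascl4. A region inside Arhgap15, which encodes a Rac GTPase activating protein of leukocytes (chr2:43756646-43757127), had no peak in spleen high libraries and a fold of 10.4, 7.55 and 7.83 in axillary high libraries. A region inside Akap12, a scaffold for protein kinase A (chr10:4357422-4357866), had no peak in spleen high libraries and 8.06, 6.96 and 8.16 in axillary high libraries. Both had a peak in 2 of 3 spleen low libraries, 3 of 3 axillary low and 3 of 3 mesenteric high libraries, so the low reporter libraries did not separate there as the high ones did. A region near Mtss1 (chr15:59105978-59106300) had no peak in spleen high libraries and a fold of 9.95, 7.49 and 5.68 in axillary high libraries, with a peak in 1 of 3 spleen low and 0 of 3 axillary low libraries. Of the 10, 9 had a peak in all 3 mesenteric high libraries.

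**Figure D5:**
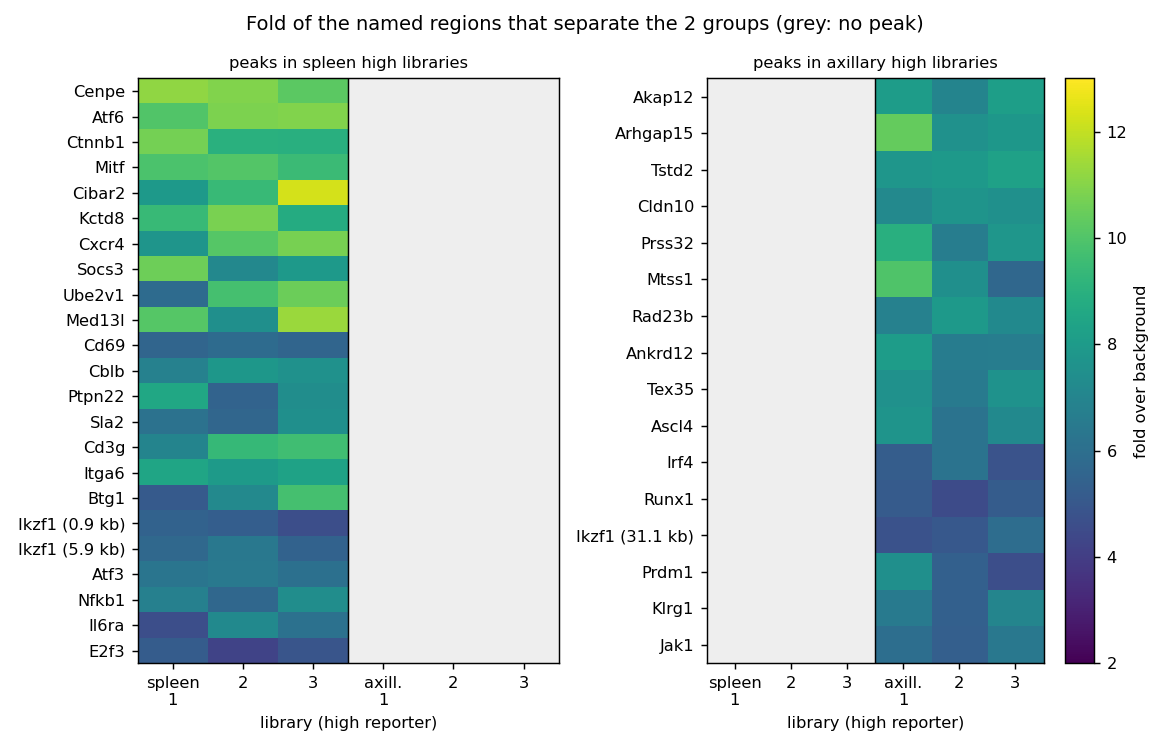
Fold over background of the named regions present in the whole of 1 group and absent from the other; columns are the 3 spleen high and 3 axillary high libraries, rows are regions named by the nearest gene, and grey means no peak. Distances in brackets are from a gene end, in kb. Most values lie between 4 and 12.3.

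Gene lists of T cell biology held few such regions in either direction; over all regions the shares were 1.64% toward the spleen and 0.306% toward the axillary nodes. Among 22 negative regulators of receptor signalling, 4 of 95 regions had a peak in the spleen high libraries only: at Socs3, at the ubiquitin ligase gene Cblb 41756 bp away, inside the phosphatase gene Ptpn22, and at the promoter of Sla2, an adaptor that limits receptor signalling. None pointed to the axillary nodes as deposited; with equal lists 2 pointed to the spleen and 1 to the axillary nodes. The Cblb region (chr16:51989289-51989659) had 6.83, 7.81 and 7.56 in spleen high libraries and kept the separation with equal lists. The Ptpn22 and Sla2 regions had 2 of 3 spleen high libraries there. In low reporter cells the Ptpn22 region went the other way, with a peak in 1 of 3 spleen and 3 of 3 axillary libraries. The Cblb and Sla2 regions each had a peak in 2 of 3 spleen low and 1 of 3 axillary low libraries. Of 90 regions at 20 proximal signalling genes, 1, the Cd3g promoter, was spleen only.

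Beside the shares of 1.64% and 0.306% over all regions, the other lists gave counts of 0 to 3. Of 88 regions at 20 genes of receptor signal and activation, 1 was spleen only, the Cd69 region, and 1 was axillary only, at Irf4, a factor graded by receptor signal (chr13:30766830-30767438). Irf4 had no peak in spleen high libraries and 5.23, 6.18 and 4.83 in axillary high libraries, but a peak in all 3 libraries of spleen low, axillary low and mesenteric high cells. Of 141 regions at 20 genes of naive state and quiescence, 3 were spleen only, 1 at Btg1 and 2 at Ikzf1, and 2 axillary only, at Runx1 and Ikzf1; Ikzf1, which encodes Ikaros, thus had regions in both directions, and none of the 5 met the criterion in the equal lists. Of 89 regions at AP-1, NFAT, NF-kB and IRF genes, 2 were spleen only, at Atf3 and inside Nfkb1, and 1 axillary only, at Irf4. Of 79 regions at 24 homing, adhesion and egress genes, 1 was spleen only, inside Itga6, an integrin chain (chr2:71843289-71843628), with 8.47, 8.01 and 8.32 in spleen high libraries. It had a peak in 2 of 3 spleen low and 2 of 3 axillary low libraries. Of 50 cell cycle regions, 2 were spleen only, at Cenpe and inside E2f3, and of 71 regions at cytokine receptor genes 1 was spleen only, at Il6ra, and 1 axillary only, inside Jak1, the kinase of shared cytokine receptors. In spleen low and axillary low libraries, E2f3 had a peak in 0 of 3 and 1 of 3. For Il6ra these were 1 of 3 and 0 of 3, and for Jak1 1 of 3 and 1 of 3. Of 60 regions at effector and memory genes, 0 were spleen only and 2 were axillary only, inside Prdm1, which encodes Blimp-1, and near Klrg1, a receptor of effector and memory cells. The Klrg1 region (chr6:122291740-122292132) had no peak in spleen high libraries and 6.50, 5.39 and 7.02 in axillary high libraries, with a peak in 1 of 3 spleen low, 1 of 3 axillary low and 1 of 3 mesenteric high libraries; with equal lists it was in 2 of 3 axillary high libraries.

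Lists for retinoic acid and TGF-beta, T helper lineages, regulatory T cells, the interferon response, the stress and glucocorticoid response and housekeeping genes held 0 such regions as deposited. At their shared regions, the median log2 difference in fold was 0.27 over 19 regions of housekeeping genes and 0.23 over 20 of the stress and glucocorticoid list, beside 0.12 over all shared regions. In 11 of the 19 housekeeping regions and 9 of the 20 stress regions every spleen high library was above every axillary high one, and in 0 of each list every one was below. These counts stand beside 19.4% above and 2.8% below over all shared regions, and 23.8% and 1.62% of those near gene ends. The list medians were lower for homing (-0.02 over 21 regions), retinoic acid and TGF-beta (-0.04 over 18), regulatory T cells (-0.02 over 14) and effector and memory genes (0.01 over 14). No region of any list passed limma on fold.

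At Nr4a1, the gene behind the reporter, 7 regions were found and 5 had a peak in all 6 libraries. The region over the RefSeq promoter window (chr15:101266306-101268384) had a fold of 7.06, 6.19 and 6.26 in spleen high libraries, against 6.57, 7.28 and 6.69 in axillary high libraries, which overlap. At a region beside an annotated end of the gene (chr15:101253681-101254450) the fold was 4.16, 4.20 and 4.14 in spleen high libraries, against 4.68, 4.95 and 4.70 in axillary high libraries; this did not pass (log2 difference -0.20, SE 0.14, limma adjusted p = 0.474). A region inside the gene (chr15:101256069-101256399) had a peak in 3 of 3 spleen high and 1 of 3 axillary high libraries, and in none of the low libraries of these organs. Reads from a reporter that carries Nr4a1 sequence cannot be told apart from those of the gene itself.

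Genes of recirculation showed small and mixed differences. Klf2, the factor that drives S1pr1, had a start-site region (chr8:72318721-72319633) with a fold of 7.63, 7.98 and 7.76 in spleen high libraries, against 7.04, 8.12 and 7.72 in axillary high libraries. The start of S1pr1 had 5.93, 6.58 and 5.64 in spleen high libraries, against 5.13, 6.99 and 6.38 in axillary high libraries. A region 15922 bp from Ccr7 had 7.67, 7.05 and 11.03 in spleen high libraries, against 12.4, 9.12 and 12.01 in axillary high libraries, with overlap. The start of Itga4, an integrin chain of gut homing (chr2:79254628-79255715), had 6.91, 7.30 and 8.12 in spleen high libraries, against 5.59, 5.30 and 6.45 in axillary high libraries, which did not overlap and did not pass (limma adjusted p = 0.23). Cd4 had 1 shared region, with 7.62, 7.29 and 7.61 in spleen high libraries, against 6.89, 6.55 and 5.92 in axillary high libraries (limma adjusted p = 0.431).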

How the data were processed

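ATAC-seq libraries were analysed from peak lists that the authors deposited, 1 per library, in mm10 coordinates. Per the submitters' processing notes, Trimmomatic 0.33, Bowtie2, bedtools and MACS were used; their parameters were not stated. Per the file layout, each peak carries the authors' fold, a -log10 p, a -log10 q and a score (10 times -log10 p). The deposited values fit a fold of summit reads plus 1 over local background plus 1. Since fold and p come from the same pair of reads and background, summit reads were recovered for 99.27% of the peaks of the 6 libraries (mismatch in -log10 p up to 0.002), and the background gave the depth in reads per 10 kb.

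Peaks on chromosomes 1 to 19 and X were merged over all 18 libraries where they overlapped by 1 bp, and each region kept the strongest peak of a library. Regions are named by the nearest protein-coding gene end of RefSeq (GRCm38.p6), and are assigned to gene lists within 100000 bp. Presence (3 of 3 against 0 of 3) has no test; log2 fold and log2 of -log10 p in regions with a peak in all 6 libraries were tested with limma 3.58.1 in R 4.3.3 (no pseudocount, trend and robust options off, Benjamini-Hochberg, adjusted p 0.05), and single values with exact permutation tests (scipy 1.17.1). Equal lists keep the 14778 strongest peaks of each library; equal depth thins recovered reads and does not choose summits anew. On simulated data for fold, limma recovered 80% of 100 regions changed by a log2 of 1 and 8% of 100 changed by 0.5, with 2 false calls among 10270 regions. Alternatives were a stricter threshold, other merging, the replicate number as a block, centring, fits with all 18 libraries, and leaving out each library. Same-numbered libraries did not deviate together (correlations 0.016, -0.017 and -0.002), and the main fits did not pair them. Such correlations cannot show whether same-numbered samples shared a mouse or a sort, which the labels do not say.

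The members, gene lists and tests were chosen with earlier results of these data known. Regions were named by rule: up to 10 per direction by rank of -log10 p among those that separate the groups in both lists, up to 10 called on fold (0 found), those of the gene lists that separate the groups, and 10 fixed genes; regions called on -log10 p were named after their values were seen. Results for some of the genes fixed by these rules are not reported here.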

Additional observations from a re-analysis of the deposited data

Results flagged for a closer look

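A region inside Prdm1, the gene of the effector regulator Blimp-1 (chr10:44443813-44444199), separated the organs in opposite directions at the 2 reporter levels. It had a peak in 0 of 3 spleen high and 3 of 3 axillary high libraries, a difference of -3 libraries, with a fold of 7.49, 5.38 and 4.65 in axillary high cells. In low reporter cells it had a peak in 3 of 3 spleen and 0 of 3 axillary libraries, with a mean fold of 5.21 ± 0.11 in spleen low cells (SD, n = 3). The difference between levels was not tested, since presence in 3 against 3 libraries allows no p below 0.1. This was the 1 region of the 76 (1.32%) with a peak in all spleen low and no axillary low library. Over all 24877 regions that share was 1.105%, so a single such region is near the overall share. Of the 409 regions toward the spleen, 0 had a peak in all axillary low and no spleen low library. Mesenteric high libraries had a peak there in 3 of 3.

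Signal outside the regions compared came from 132 peaks of the 6 libraries on sequences other than chromosomes 1 to 19 and X. Of these, 42 lay on the mitochondrial genome, 14 on chromosome Y and the others on unplaced or unlocalized sequences.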

How the results depend on the processing

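Presence and the calls on -log10 p both moved with the settings. Regions in all spleen high and no axillary high library, 409 as deposited, numbered 203 with equal lists, 261 at equal depth and 1299 against axillary replicate 2 alone; those toward the axillary nodes, 76, numbered 160, 120 and 1090, and 819 and 1387 when equal lists and that 1 library were combined. The counts against axillary replicate 2 alone ask for a peak in 3 spleen libraries or in 1 axillary library, so the 2 directions cannot be compared there. Leaving out 1 library gave 584 to 792 and 156 to 222. The gene-end share of summits, lower by 1.78 percentage points in spleen high lists, was 1.73 points higher with equal lists. The difference was -0.27 points at the stricter threshold and -0.13 at equal depth. The median log2 fold difference was -0.0791 at equal depth and -0.0033 after centring. It was 0.0006 with summit reads over the genome average, with no constant added. For -log10 p the median was -0.244 at equal depth and -0.0125 after centring. Calls on fold, 0 and 0, became 69 higher and 1 lower at the stricter threshold, 145 and 8 with all 18 libraries, 1 lower with summit reads over the genome average, and 0 to 1 higher without 1 library. Calls on -log10 p, 90 higher and 7 lower, became 168 higher with equal lists, 210 at the stricter threshold, 58 where peaks had to lie mostly within 250 bp of the region's centre, 0 and 40 at equal depth, 0 and 1 after centring, 29 and 3 with the mean of all peaks, 234 and 17 with all 18 libraries, 2 and 0 against axillary replicate 2 alone, and 0 to 75 and 0 to 5 without 1 library. With the replicate number as a block 32 and 3 were called; on fold 0 and 0. The cause of these changes was not tested. With spleen low replicate 3 alone, its excess over axillary low libraries was 13.9 percentage points at the 409 regions and -20.6 at the 76. The gene-end contrast in fold ranged over 0.098 to 0.118 without 1 library. The equal lists end at a -log10 p of 8.46 to 8.96 in spleen high and 5.10 to 7.56 in axillary high libraries.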
